A study of Mus musculus with 2 samples.

Results

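A set of 9 genes, Hivep3, Bend4, Epb41l4a, Ubash3b, Zbtb18, Ust, Cachd1, Prex1 and Myo10, was followed through every cell class of the embryonic mouse dorsal telencephalon. They are 9 of the 32285 genes in the count tables and were selected on these same data for opposite levels in MGE-like interneurons and in the excitatory lineage, so that opposition is given here as a description, without a test. The tissue came from WT mouse embryos of the EomesDot line at embryonic day 14.5, dissociated with papain and profiled with a droplet-based 3′ single-cell RNA kit. There were 2 libraries, named replicate 2 and replicate 4 after their titles, both in the single group WT, with no treatment. The labels name the EomesDot line whereas the study's methods name C57BL/6J mice. The study counts more embryos for its single-cell data of this age than the 2 libraries used here, and no source used here says how embryos were divided among libraries, so the spread between the libraries may be technical.

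The dorsal telencephalon makes its excitatory neurons locally. Radial glial cells (RGCs) line the ventricle, many of their daughters pass through an intermediate progenitor cell (IPC) stage marked by Eomes, and these give rise to projection neurons. Inhibitory interneurons are instead born in the ganglionic eminences below the cortex, the medial (MGE) and caudal (CGE) ones among them, and migrate in. They carry Dlx programmes, with Lhx6 in those from the MGE, in place of the Neurog2 and Neurod programmes of the cortical lineage.

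The 2 libraries held 1712 and 2589 barcodes with 40267872 and 49422007 UMIs (molecular tags that mark single captured transcripts), and shared 3 barcode sequences. After filtering, 3153 cells were retained and 1479 were excitatory neuron-like, 741 RGC-like, 376 IPC-like and 137 MGE interneuron-like. The MGE interneuron-like cells held Lhx6 at 292 and 252 CPM (the UMIs of a gene per 1000000 UMIs of a library's cells of that class) and Gad2 at 823 and 774 CPM in replicates 2 and 4, and the excitatory marker Neurod6 at 5.62 and 9.71 CPM against 908 and 673 CPM in excitatory neuron-like cells. Excitatory neuron-like cells held Lhx6 at 0.307 and 0.314 CPM. The whole list of 13 excitatory markers summed to 1950 and 2085 CPM in MGE interneuron-like cells, with 3 and 1 of its genes at zero, against 10801 and 11396 CPM in excitatory neuron-like cells. MGE interneuron-like cells were shallower than excitatory neuron-like cells, with medians of 23450 against 32930 UMIs per cell in replicate 2 and 10880 against 24151 in replicate 4. Striatal projection neuron-like cells numbered 1 in replicate 2 and 67 in replicate 4, and CGE interneuron-like cells 5 and 21, so those classes were not tested against each other.

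The members differ in what their proteins do. Hivep3 is a large zinc finger protein of the HIVEP (Schnurri) family, and Bend4 carries a BEN domain, a fold found in DNA-binding nuclear proteins. Epb41l4a belongs to the protein 4.1 family of FERM-domain proteins, which lie under the plasma membrane, and Ubash3b (Sts-1) is a phosphatase known for damping tyrosine kinase signals. Zbtb18 (RP58) is a zinc finger repressor needed for the development of cortical projection neurons, Prex1 is an exchange factor that loads the small GTPase Rac, and Myo10 is the motor of filopodia. Ust adds sulfate to the uronic acids of chondroitin and dermatan sulfate, and Cachd1 is a membrane protein related to the alpha2delta subunits of calcium channels.

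The promoters shown are of the members with the largest (Bend4) and the smallest (Zbtb18) ratio of mean MGE interneuron-like to mean excitatory neuron-like level. In replicate 4 alone the ratio was larger for Epb41l4a (34.7) than for Bend4 (32.8). The sequences are the 250 bases before the first listed transcript start of each gene, from the RefSeq table on GRCm38.p6. Capitals mark a match to CAGATG, letters of the E-box that proneural factors such as Neurog2 bind, or to TAATTA, the core letters of many homeodomain sites. Both strands were searched (CATCTG is the reverse complement of CAGATG, and TAATTA reads the same on both), and the motifs do not overlap each other.
Bend4, chr5:67427800-67428049, minus strand: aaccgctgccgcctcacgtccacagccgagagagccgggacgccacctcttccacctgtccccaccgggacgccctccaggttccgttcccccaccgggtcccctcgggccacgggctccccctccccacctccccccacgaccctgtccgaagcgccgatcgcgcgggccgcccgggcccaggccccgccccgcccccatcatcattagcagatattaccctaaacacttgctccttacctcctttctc
Zbtb18, chr1:177442101-177442350, plus strand: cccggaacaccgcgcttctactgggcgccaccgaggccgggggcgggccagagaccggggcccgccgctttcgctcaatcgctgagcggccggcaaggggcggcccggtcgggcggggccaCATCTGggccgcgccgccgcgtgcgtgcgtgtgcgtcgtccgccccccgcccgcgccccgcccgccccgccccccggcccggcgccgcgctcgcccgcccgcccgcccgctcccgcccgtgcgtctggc

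The Zbtb18 stretch held 1 CAGATG match, on the opposite strand, starting at base 122, which is 129 bases before the transcript start, and no TAATTA. All 5 listed Zbtb18 promoter windows, some of which overlap, held CAGATG. The Bend4 stretch, which lies inside the outer limits of the annotated gene, held neither motif, and none of the promoter windows of the other members with an entry held either. Of the 32851 mouse promoter windows of 300 bases in the table, 17.2% held CAGATG and 5.29% held TAATTA. The GC content was 70% in the Bend4 stretch and 84% in the Zbtb18 stretch, against a median of 52.7% over the windows. Both promoters are therefore GC-rich, and a match is a description of letters only.

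In MGE interneuron-like cells 4 of the members were high. Hivep3 stood at 589 CPM in replicate 2 and 515 CPM in replicate 4 in MGE interneuron-like cells (mean 552 ± 52.2, SD, n = 2), against 105 and 88.3 CPM in excitatory neuron-like cells. Its RGC-like (6.2 and 8.5 CPM) and IPC-like (6.71 and 6.33 CPM) levels overlapped each other and were the lowest among the 6 classes that had 10 or more cells per library. Hivep3 was thus not silent in the excitatory lineage but present in its neurons, at a level 5.71 times lower than in the interneurons.

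Bend4 stood at 85.9 and 66.2 CPM in MGE interneuron-like cells (182 UMIs in 137 cells). Excitatory neuron-like cells held 1.59 and 2.02 CPM and IPC-like cells 1.26 and 1.63 CPM, ranges that overlapped, while RGC-like cells held 8 and 7.84 CPM. The mean level was 42.2 times higher in MGE interneuron-like than in excitatory neuron-like cells. A Bend4 UMI was seen in 70.4% (95% exact Clopper-Pearson interval 56.4 to 82) of the MGE interneuron-like cells of replicate 2 and 47% (35.9 to 58.3) of those of replicate 4, against 3.4% and 3.7% of excitatory neuron-like cells. With every cell thinned to 5000 UMIs the shares were 26.4% and 30.3% against 0.714% and 0.941%, so the difference between the libraries' interneurons narrowed and that between the classes remained.

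Epb41l4a stood at 382 and 387 CPM in MGE interneuron-like cells and at 11.2 CPM in excitatory neuron-like cells of both libraries, a 34.5-fold ratio of means. A second class had much of it as well: Cajal-Retzius-like cells, the early-born Reln-expressing neurons of the cortical surface, held 157 and 255 CPM (16 and 24 cells). Its RGC-like levels were 22.4 and 16.6 CPM, and its IPC-like levels of 11.5 and 7.24 CPM overlapped those of excitatory neuron-like cells.

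Ubash3b stood at 228 and 246 CPM in MGE interneuron-like cells, 9.35 times the mean of excitatory neuron-like cells (27.5 and 23.2 CPM). Among the excitatory lineage, IPC-like cells held the least (5.87 and 5.25 CPM). RGC-like cells held 28.2 and 39.8 CPM, but 55 of their 250 UMIs in replicate 2 and 210 of 483 in replicate 4 came from 10 and 14 cells of the cluster led by Apoe, so they are not ranked above the neurons here. For all 4 of these genes the MGE interneuron-like values of both libraries lay above every value of the 3 lineage classes, which the selection fixed. In a fit over all genes, 20.5% of 14557 genes were called between MGE interneuron-like and excitatory neuron-like cells, and nothing is read from that figure for the members.

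The other 5 members were nearly absent from MGE interneuron-like cells. Zbtb18 gave 3 UMIs in the 54 cells of replicate 2 and 7 UMIs in the 83 cells of replicate 4 (2.41 and 6.18 CPM), against 439 and 414 CPM in excitatory neuron-like cells, a 99.2-fold ratio of means. With 3 and 7 UMIs this ratio is set by few molecules, and it was 182 in replicate 2 and 67 in replicate 4. A Zbtb18 UMI was found in 93% and 94.7% of excitatory neuron-like cells and in 5.56% (1.16 to 15.4) and 7.23% (2.7 to 15.1) of MGE interneuron-like cells.

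The contrast in Zbtb18 shares remained when each cell was thinned to 5000 UMIs, which left 53 and 76 MGE interneuron-like cells and 560 and 850 excitatory neuron-like cells. The shares were then 80.7% and 81.5% in excitatory neuron-like cells, and 0% (0 of 53 cells, which allows up to 5.66%) and 2.63% in MGE interneuron-like cells. Whether the few Zbtb18 UMIs came from the cells or from free RNA was not tested.

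Prex1 stood at 2.41 and 5.3 CPM in MGE interneuron-like cells and at 137 and 141 CPM in excitatory neuron-like cells. Ust stood at 4.01 and 2.65 CPM against 130 and 153 CPM, and Cachd1 at 4.01 and 5.3 CPM against 198 and 224 CPM. Myo10 gave 1 UMI in each library's MGE interneuron-like cells (0.803 and 0.883 CPM) against 10.3 and 13.6 CPM in excitatory neuron-like cells. Myo10 was therefore low in both kinds of neuron, and stood higher in the progenitors, with 95 and 88.2 CPM in RGC-like and 197 and 173 CPM in IPC-like cells.

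**Figure D1:**
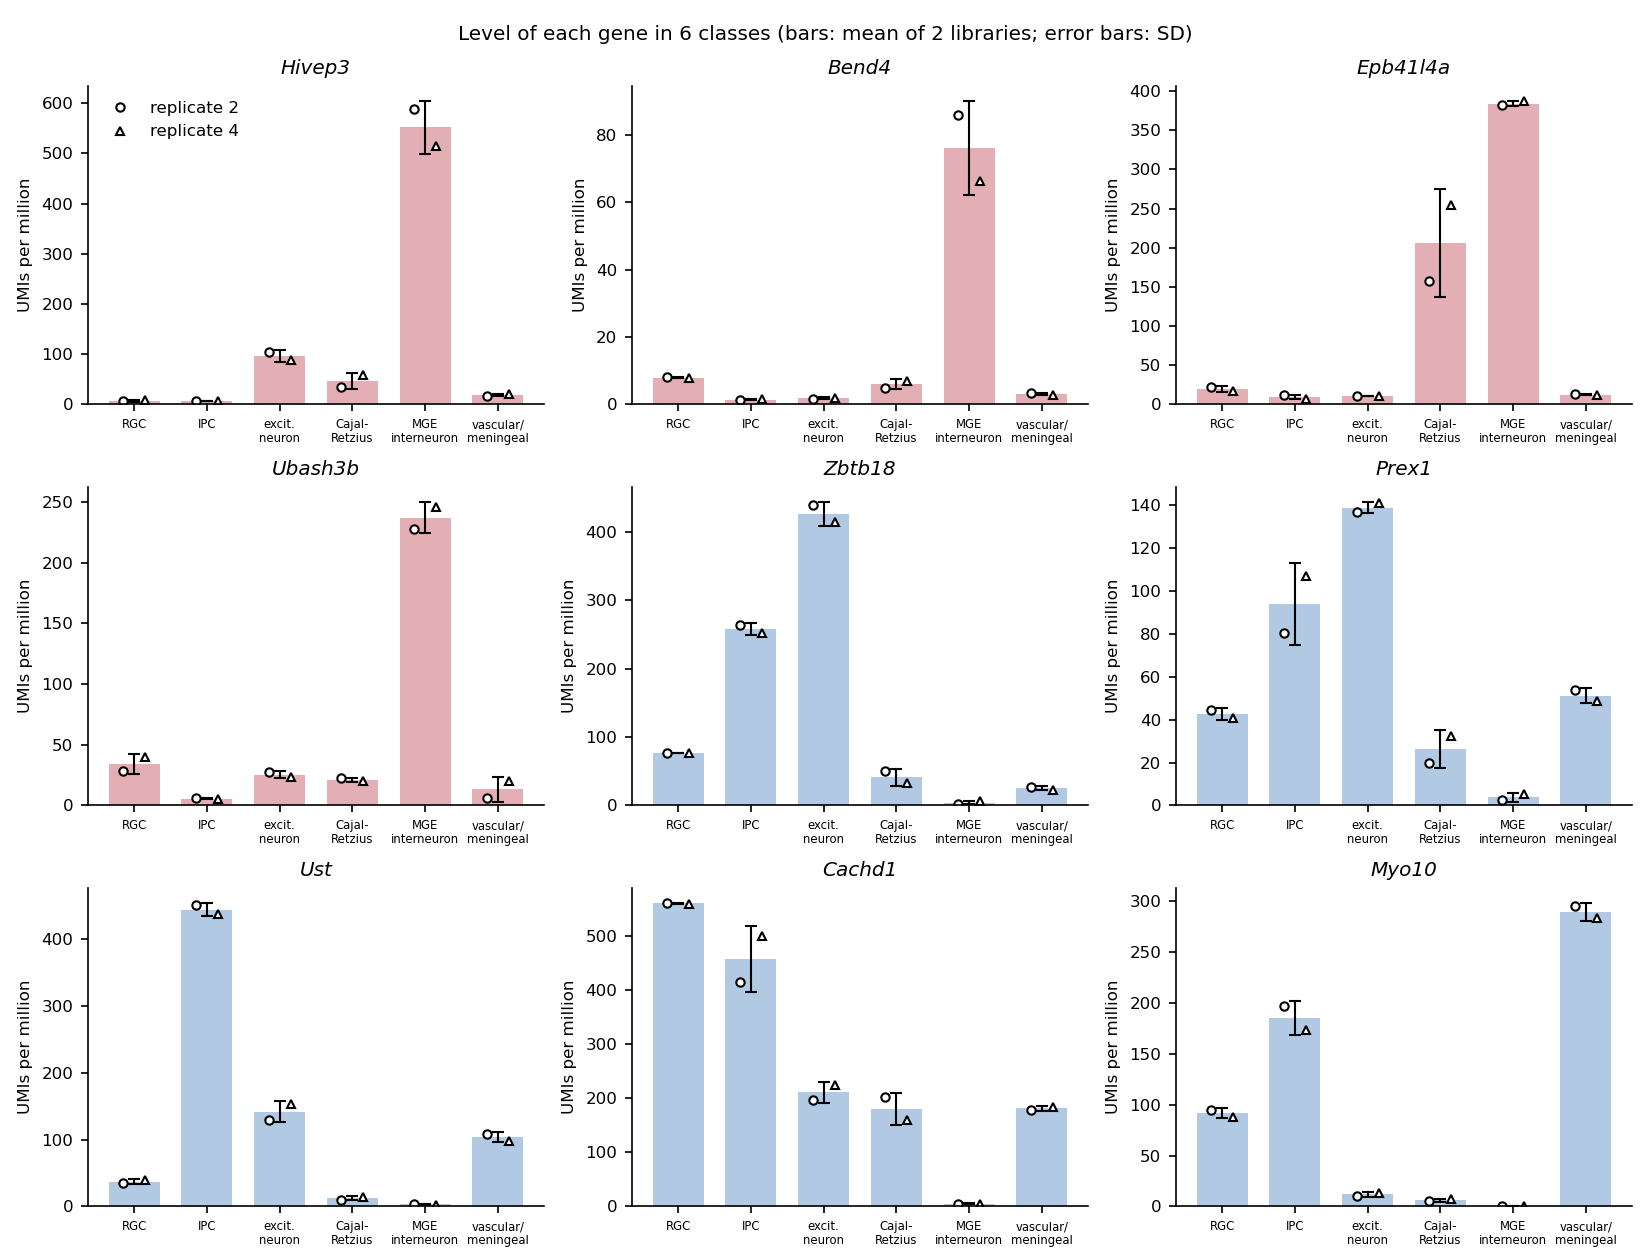
Level of each gene (vertical axis, CPM) in the 6 classes that had 10 or more cells per library; bars are means of the 2 libraries, error bars SD, circles replicate 2 and triangles replicate 4. The 4 genes in red peak in MGE interneuron-like cells, and the 5 in blue peak at different points: Zbtb18 and Prex1 in excitatory neuron-like, Ust in IPC-like, Cachd1 in RGC-like and Myo10 in vascular or meningeal-like cells.

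The rule set interneurons against the lineage as a whole and did not compare the steps within it, which were tested here. It did use the members' levels in the lineage. Members chosen for large class differences may also change more than most genes within the lineage. The shares over all genes are thus not a matched background at either step. UMIs were summed per class and library, and edgeR's quasi-likelihood test with Benjamini-Hochberg adjustment was fitted over all genes and classes together. Between RGC-like and IPC-like cells, 7 of the 9 members were called at an adjusted p under 0.05, 4 higher and 3 lower in IPC-like cells, beside 32.5% of the 14557 genes tested (15.8% higher and 16.7% lower). The median absolute log2 fold change was 1.25 over the members and 0.47 over all genes tested. All 9 members had passed the filter on low counts, which a gene could pass through any class, MGE interneuron-like cells included.

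Ust changed most. It rose from 34.7 and 39.7 CPM in RGC-like cells to 451 and 437 CPM in IPC-like cells, a log2 fold change of 3.68 (SE 0.15, adjusted p = 3.59e-07, edgeR). Zbtb18 rose from 77.1 and 76.2 CPM to 264 and 252 CPM (log2 fold change 1.86, SE 0.16, adjusted p = 1.72e-05). Prex1 rose from 44.6 and 40.8 to 80.4 and 107 CPM (log2 fold change 1.25, SE 0.17, adjusted p = 0.000325), and Myo10 rose with a log2 fold change of 1.13 (SE 0.14, adjusted p = 0.000178).

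Of the interneuron-high genes, 3 were lower in IPC-like than in RGC-like cells. Bend4 and Ubash3b fell with log2 fold changes of -2.32 (SE 0.30, adjusted p = 0.000216) and -2.51 (SE 0.32, adjusted p = 0.000207). Epb41l4a had a log2 fold change of -0.95 (SE 0.27, adjusted p = 0.02). One RGC-like cluster, led by Ttr and Rspo3, held Epb41l4a at 68 and 35.9 CPM against 4.97 to 22.1 CPM in the other RGC-like clusters. Without that cluster, an alternative chosen after seeing the data, the log2 fold change was -0.35 (adjusted p = 0.331 in edgeR) and 6 of the 9 members were called. The Epb41l4a call was lost in 6 of the 16 alternative settings tried. In the other 5 its log2 fold change was -0.78 with cells of at least 500 genes, -0.68 with classes from 50% of the UMIs, -0.63 with at most 5% mitochondrial UMIs, -0.48 with finer clusters and -0.22 with coarser ones. The Ubash3b call was lost in 2, where its log2 fold change was -1.40 with cells of at least 500 genes and -0.20 with coarser clusters. The Bend4 call held in all 16.

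RGC-like cells also carried more RNA of the GABAergic marker list than the rest of the lineage: its 10 genes summed to 78.4 and 100 CPM in RGC-like cells, 48.3 and 53 CPM in IPC-like cells and 8.03 and 12.4 CPM in excitatory neuron-like cells, against 3636 and 3534 CPM in MGE interneuron-like cells. Of the 10, 1 and 0 were at zero in RGC-like cells. Gad2 itself was at 0.451 and 4.54 CPM there. The part of that RNA in the RGC-like levels of Bend4, Ubash3b and Epb41l4a was not tested.

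Hivep3 (log2 fold change -0.08, SE 0.25, adjusted p = 0.844) and Cachd1 (-0.18, SE 0.15, adjusted p = 0.388) did not pass the test at this step. For Hivep3 the direction was not stable. It was positive in 6 of the 16 alternatives and called higher in IPC-like cells in 2 of them, at 1.83 with cells of at least 500 genes (adjusted p = 0.000515) and 0.82 when classes were made from 50% of each cell's UMIs and tested on the rest (adjusted p = 0.0177). Cachd1 was called in 0 of the 16, and its log2 fold change was 0.16 without the Ttr-led cluster (adjusted p = 0.448).

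Between IPC-like and excitatory neuron-like cells, 7 of 9 members were called again, 4 higher and 3 lower in the neurons, beside 35.8% of the 14557 genes tested (18.8% higher and 17% lower). The median absolute log2 fold change was 0.99 over the members and 0.48 over all genes. Both comparisons share the IPC-like sums, so a low IPC-like value favours opposite signs at the 2 steps.

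Hivep3 rose 16.2-fold, from 6.71 and 6.33 CPM to 105 and 88.3 CPM (log2 fold change 4.02, SE 0.23, adjusted p = 1.17e-06). Myo10 moved as far in the other direction, from 197 and 173 CPM to 10.3 and 13.6 CPM (log2 fold change -3.82, SE 0.16, adjusted p = 5.91e-07). Hivep3, of the interneuron-high group, thus rose into the excitatory neurons, and Myo10, of the lineage-high group, fell.

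Ubash3b also rose into the neurons, with a log2 fold change of 2.32 (SE 0.32, adjusted p = 0.000224), a call lost in 2 of the 16 alternatives with the direction kept (1.79, adjusted p = 0.0521, with cells of at least 500 genes and 0.42, adjusted p = 0.319, with coarser clusters). Zbtb18 rose again (0.86, SE 0.15, adjusted p = 0.00129) and Prex1 rose by 0.69 (SE 0.16, adjusted p = 0.0071), the latter short of the threshold with cells of at least 500 genes (0.48, adjusted p = 0.0548). Ust fell by 1.52 on the log2 scale (SE 0.13, adjusted p = 1.20e-05) and Cachd1 fell by 0.99 (SE 0.15, adjusted p = 0.000475).

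Bend4 (0.44, SE 0.33, adjusted p = 0.39) and Epb41l4a (0.39, SE 0.27, adjusted p = 0.29) did not pass the test at the step into neurons. Zbtb18 and Prex1 were the 2 members that were called higher at both steps. Ust and Myo10 were called higher at the first and lower at the second, and Ubash3b lower at the first and higher at the second.

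**Figure D2:**
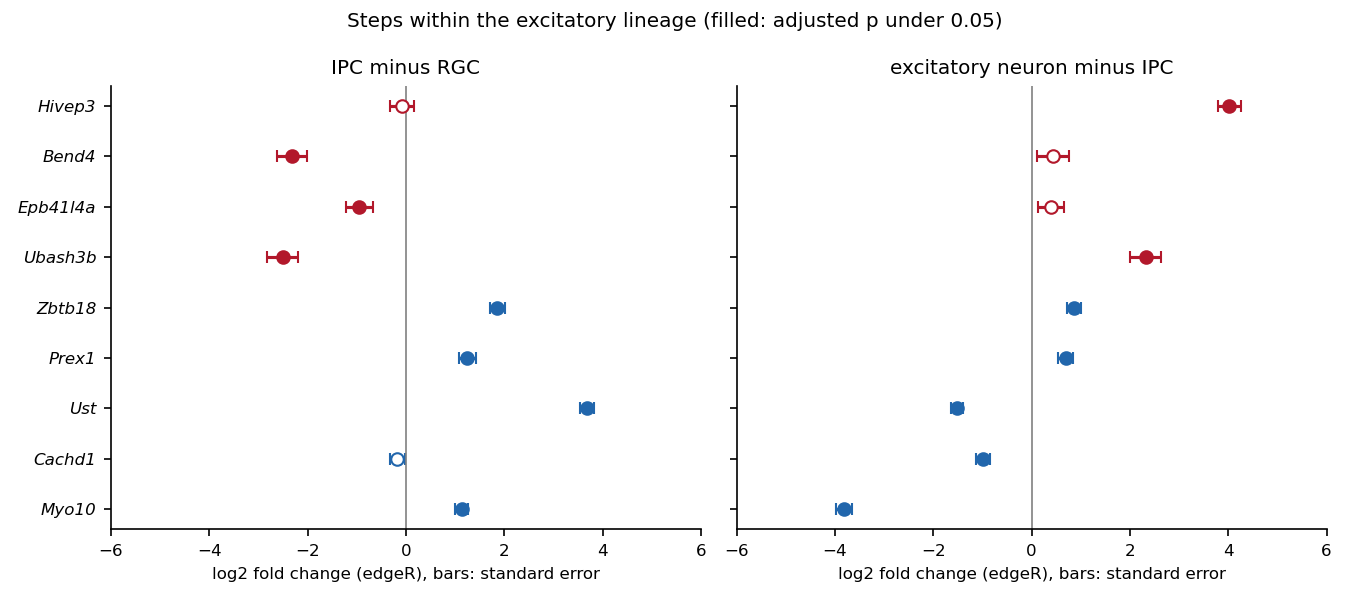
Log2 fold change (horizontal axis) of each gene from RGC-like to IPC-like cells (left) and from IPC-like to excitatory neuron-like cells (right), with the standard error; filled points passed an adjusted p of 0.05 in edgeR, open points did not. Hivep3 at 4.02 and Myo10 at -3.82 lie farthest out at the second step, and Ust at 3.68 at the first.

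The classes were not uniform. Clusters are described by their leading genes, with no test, since they were made from these cells, although the 9 members were left out of the genes used for clustering. Among excitatory neuron-like cells, a cluster led by Unc5d, Neurod1 and Eomes (97 and 209 cells) held Ust at 418 and 395 CPM, Cachd1 at 350 and 418 CPM and Hivep3 at 17 and 12.2 CPM. Myo10 stood at 34.4 and 41.9 CPM in it, below the 197 and 173 CPM of IPC-like cells. In the cluster led by Unc5d, Slc17a6 and Sema3c (44 and 65 cells) Hivep3 stood at 120 and 114 CPM with Ust still at 371 and 469 CPM. That cluster also held the most Prex1 of the excitatory neuron-like clusters, 322 and 331 CPM.

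Ust then stood at 133 and 151 CPM in the cluster led by Adamtsl3, and between 23.3 and 64.7 CPM in the clusters led by Cntn2, Tafa1, Lrfn5 and Rgs6. Myo10 was at or below 10.5 CPM in all 5 of these. Prex1 divided them: 296 and 288 CPM in the Adamtsl3 cluster, 132 and 130 CPM in the Cntn2 cluster, and 26.3 to 69.6 CPM in the Tafa1, Lrfn5 and Rgs6 clusters. Zbtb18 stayed between 294 and 593 CPM over the 7 clusters named so far.

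A further excitatory neuron-like cluster was shallow and led by Stmn2 and hemoglobin genes (34 and 19 cells), and held no Ust UMI, which allows up to 17.2 and 37.5 CPM. The step from IPC-like cells kept the calls of all 7 members without that cluster and, separately, without the Eomes-led one, both alternatives chosen after seeing the data. Without the Eomes-led cluster the log2 fold change of Ust was -2.19 and that of Myo10 -4.69, so both fell further into the remaining neurons.

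Among RGC-like cells Cachd1 was uneven. It stood at 1137 and 1127 CPM in the cluster led by Ttr and Rspo3 (49 and 90 cells), genes known from the choroid plexus and the cortical hem, and between 368 and 498 CPM in the 3 other RGC-like clusters. The same cluster held the most Epb41l4a (68 and 35.9 CPM), Zbtb18 (117 and 115 CPM), Prex1 (84.5 and 79.1 CPM) and Ust (71.9 and 74 CPM) of the RGC-like clusters. Ubash3b was highest instead in the cluster led by Apoe, Mt1 and Gas1 (54.7 and 151 CPM), where few cells carried it: 55 UMIs lay in 10 of 50 cells and 210 UMIs in 14 of 79. The share of cells with a Ubash3b UMI there, 20% and 17.7%, was below that in the clusters led by Gm29260 (26.3% and 33.3%) and by Creb5 and Top2a (39% and 35.3%), which were deeper. Among the 40 and 66 cells that could be thinned to 5000 UMIs it was 10% and 10.6%, against 10.6% to 13.2% in those clusters.

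IPC-like cells split on Ust and Cachd1. The cluster led by Eomes and Neurog2 (92 and 108 cells) held Ust at 700 and 723 CPM, whereas the dividing cluster led by Top2a held 145 and 165 CPM and the cluster led by Neurod1 and Eomes 89.4 and 311 CPM. Cachd1 stood instead at 321 and 385 CPM in the first and at 732 and 747 CPM in the Neurod1 cluster. Zbtb18 stood at 210 and 199 CPM in the first and 361 and 377 CPM in the Neurod1 cluster.

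**Figure D3:**
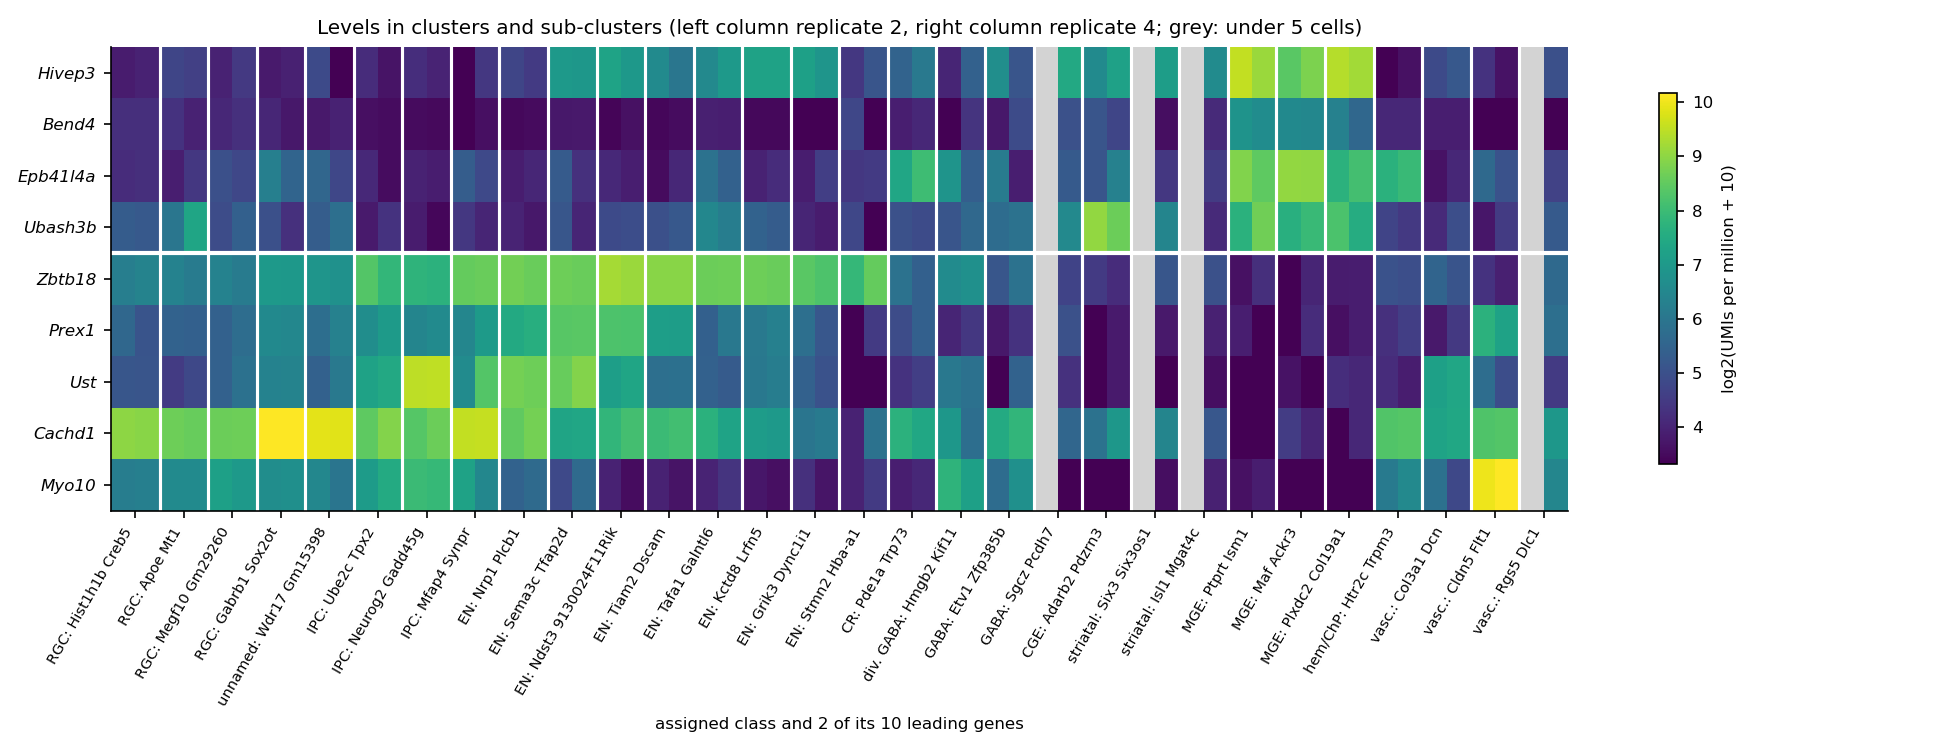
Log2(CPM + 10) of each gene (rows) in every cluster and GABAergic sub-cluster (columns, with the class and 2 of the leading genes; EN, excitatory neuron; CR, Cajal-Retzius; ChP, choroid plexus); the left side of each column is replicate 2 and the right side replicate 4, and grey marks fewer than 5 cells. Ust is brightest in the IPC-like cluster with Neurog2, Cachd1 in the RGC-like cluster with Gabrb1 and Myo10 in the vascular cluster with Cldn5.

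The 4 interneuron-high genes were not shared evenly by GABAergic cells. Ubash3b was higher in CGE interneuron-like cells, led by Adarb2 and Sp8, than in the MGE interneuron-like class: 525 CPM in 5 cells of replicate 2 and 387 CPM in 21 cells of replicate 4. In replicate 4 the MGE interneuron-like sub-cluster led by Nxph1, Dpp10 and Ptprt held 402 CPM in 14 cells, so the order of single sub-clusters differed between the libraries. In CGE interneuron-like cells Hivep3 stood at 87.5 and 142 CPM, Epb41l4a at 25 and 70.8 CPM and Bend4 at 25 and 16.7 CPM. All were below MGE interneuron-like values. In replicate 2 the values of Epb41l4a and Bend4 rest on 2 UMIs each, and in replicate 4 the 17 Epb41l4a UMIs lay in 3 cells. The 26 CGE interneuron-like cells give too little for a test, and cells of 1 library are not replicates.

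Striatal projection neuron-like cells, measured in replicate 4 alone (67 cells), held Hivep3 at 109 CPM, Ubash3b at 40.9 CPM, Epb41l4a at 12.4 CPM and Bend4 at 4.76 CPM. For Hivep3 and Epb41l4a these levels lay near those of the excitatory neuron-like cells of that library (88.3 and 11.2 CPM). Of the lineage-high genes, Cachd1 stood at 50.4 CPM and Zbtb18 at 23.8 CPM in them, and Ust at 0.951 CPM, a single UMI.

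The dividing GABAergic precursor-like cells, led by Top2a and Ccnd2, held several lineage-high genes. Myo10 stood at 207 CPM in the 5 cells of replicate 2 and 139 CPM in the 39 cells of replicate 4, Zbtb18 at 87.9 and 97.9 CPM, Ust at 56.5 and 49 CPM and Cachd1 at 113 and 45.1 CPM. Prex1 was an exception with 6.28 and 11.6 CPM. For Zbtb18, Ust and Myo10 these values were above those of RGC-like cells of the same library. Hivep3 was still low there (6.28 and 33.5 CPM). CGE interneuron-like cells held no Myo10 UMI (which allows up to 37.5 and 12.5 CPM), Ust and Prex1 at 0 and 4.16 CPM each, and Cachd1 at 50 and 112 CPM. GABAergic cells were thus not alike in the lineage-high genes, though the small classes were not tested.

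Within the MGE interneuron-like cells, the 3 sub-clusters were led by Nxph1, Dpp10 and Ptprt (21 and 14 cells), by Nxph1, Dpp10 and Maf (16 and 47 cells) and by Sst and Nxph1 (17 and 22 cells). Npy was among the 10 leading genes of the first and the last. Epb41l4a stood at 461 and 343 CPM, 520 and 515 CPM, and 202 and 268 CPM in that order. Hivep3 stood at 738 and 551 CPM, 329 and 440 CPM, and 672 and 580 CPM. The sub-cluster with most Epb41l4a was thus the one with least Hivep3, a description over 3 sub-clusters.

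Cells with at least 1 Sst UMI were then compared with the other MGE interneuron-like cells, in a fit of their own. The Sst-positive cells were deeper, with medians of 25713 against 23396 UMIs in replicate 2 and 15037 against 9785 in replicate 4. A cell without an Sst UMI may thus still express Sst. Only 4 of the 9 members passed the low-count filter, all from the interneuron-high group, and none was called (0 of 4 in edgeR and in DESeq2), beside 0.21% of the 7622 genes tested, or 16 genes, all higher in Sst-positive cells. Some alternatives called genes in both directions, such as 56 higher and 14 lower with the library as a block in the fit. Epb41l4a came nearest, with 266 and 235 CPM in Sst-positive against 482 and 486 CPM in Sst-negative cells, a log2 fold change of -0.97 (SE 0.21) with an adjusted p of 0.139 in edgeR. Over 13 alternatives its adjusted p ranged from 0.0605 to 0.736, and it was called in 0 of them. An unadjusted p under 0.05 was reached by 726 of the genes tested, and by Epb41l4a alone among the 4 members.

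Hivep3 differed by -0.07 (SE 0.23, adjusted p = 0.966), Bend4 by 0.39 (SE 0.28, adjusted p = 0.729) and Ubash3b by 0.06 (SE 0.25, adjusted p = 0.975) on the log2 scale. The sums behind these values came from 23 and 26 Sst-positive cells and 31 and 57 Sst-negative ones. From 1 library at a time Hivep3 ran from -0.38 to 0.16, Bend4 from 0.04 to 0.61 and Ubash3b from -0.43 to 0.53. That these genes did not pass does not show that their levels were equal.

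Outside the neural lineages, the vascular or meningeal-like class held Myo10 at 295 and 283 CPM, above every neural class. It was highest there in the cluster led by the endothelial genes Cldn5 and Flt1 (9 and 18 cells), with 1011 and 1123 CPM of Myo10 and 201 and 143 CPM of Prex1. The cluster led by Col3a1 and Dcn held 49 and 18.1 CPM of Myo10. Hem or choroid plexus-like cells (18 and 9 cells) held Epb41l4a at 197 and 239 CPM and Hivep3 at 0 and 2.37 CPM, 1 UMI in all. Cajal-Retzius-like cells, though excitatory, had Zbtb18 at only 49.8 and 32.6 CPM and Ust at 9.97 and 14.2 CPM.

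Across the 12 sums (6 classes in 2 libraries), the 4 interneuron-high genes correlated with each other on log2(CPM + 10) with Pearson's r from 0.727 (Hivep3 and Epb41l4a) to 0.94 (Bend4 and Ubash3b), and negatively with each of the other 5. The sign of these values follows from how the genes were selected. Among the 5 lineage-high genes r ran from 0.22 for Zbtb18 and Myo10 to 0.908 for Zbtb18 and Prex1. Sums of 1 library share that library's preparation and depth, and the 12 points are not independent.

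The gene most like each member over the 12 sums was Gria1 for Hivep3 (r = 0.988), Tox2 for Bend4 (0.983), Gm47423 for Epb41l4a (0.969) and Dmd for Ubash3b (0.953). For the lineage-high genes it was Gm26801 for Zbtb18 (0.981), Rasgef1b for Prex1 (0.93), Slc30a10 for Ust (0.968), Eef1g for Cachd1 (0.961) and Ttyh2 for Myo10 (0.99). Each is the highest value over all genes considered and is a description. With 1 in place of 10 added to the CPM, another gene came first for Hivep3, Epb41l4a, Cachd1 and Prex1.

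**Figure D4:**
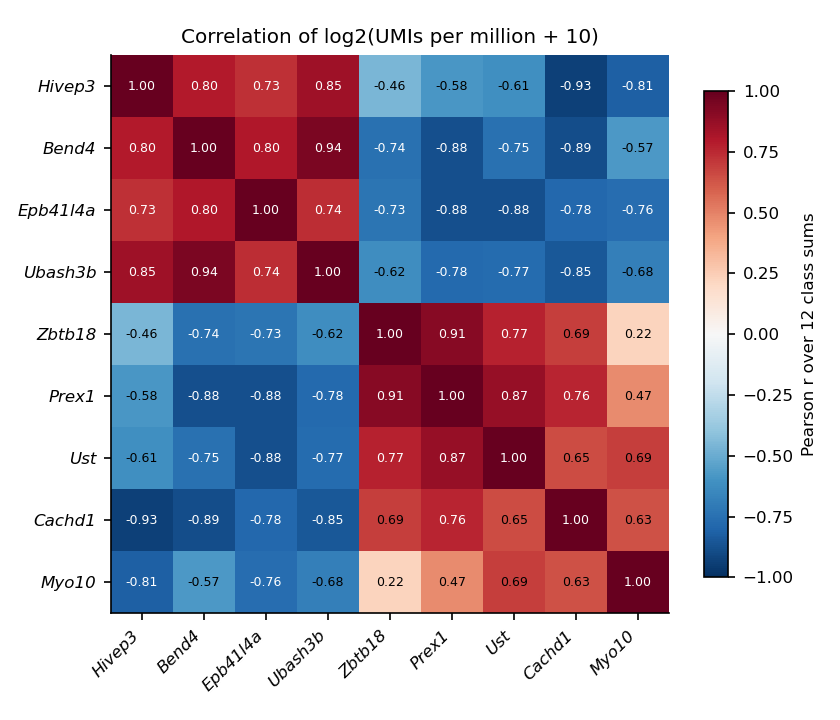
Pearson's r between the genes over the 12 class sums, on log2(CPM + 10), from blue (-1) to red (1). The red block at the upper left holds Hivep3, Bend4, Epb41l4a and Ubash3b, and the block at the lower right is weakest between Zbtb18 and Myo10 (0.22).

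Relatives of the members were not picked by the rule, but their lists were drawn up with earlier results of these data known. They were compared between MGE interneuron-like and excitatory neuron-like cells in the same edgeR fit. In it 7.71% of the genes tested passed as higher and 12.8% as lower in the interneurons, with a median log2 fold change of -0.09 over all genes. At the steps of the lineage the medians over all genes were -0.01 and 0.01. In the HIVEP zinc finger family, Hivep2 stood at 112 and 120 CPM in MGE interneuron-like and 639 and 573 CPM in excitatory neuron-like cells (log2 fold change -2.46, SE 0.22, adjusted p = 2.55e-05), against Hivep3's higher level in the interneurons. Hivep1 was not called, and the median of these 2 genes was -1.21. Both were lower in IPC-like than in RGC-like cells (Hivep2 -1.14, SE 0.23, adjusted p = 0.00317, and Hivep1 -0.47, SE 0.14, adjusted p = 0.0274), though the Hivep2 call was lost, with the direction kept, with cells of at least 500 genes (-0.30, adjusted p = 0.406) and with coarser clusters (-0.79, adjusted p = 0.105). Into neurons Hivep2 rose with Hivep3, by a log2 fold change of 5.29 (SE 0.25, adjusted p = 5.91e-07).

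Of 6 BEN domain genes, 2 passed as higher and 1 as lower in the interneurons (list median 0.47). Nacc2 had a log2 fold change of 3.74 (SE 0.48, adjusted p = 0.000275, against 0.614 and 1.12 CPM in the neurons) and Bend6 of -1.57 (SE 0.37, adjusted p = 0.0126). From RGC-like to IPC-like cells 2 rose and 2 fell (median -0.24), with Nacc2 at -2.60 (SE 0.38, adjusted p = 0.000469) and Bend6 at -1.68 (SE 0.58, adjusted p = 0.0473), a call lost in 6 alternatives. Into neurons 2 rose and 4 fell (median -0.83), with Bend6 at 5.61 (SE 0.45, adjusted p = 6.28e-06), a size that rests on 0.21 and 1.81 CPM in IPC-like cells, and Bend7 at -2.03 (SE 0.21, adjusted p = 3.68e-05). Of 7 genes of the protein 4.1 family, 2 were higher and 2 lower (median -0.78): Epb41l4b (3.27, SE 0.45, adjusted p = 0.000453) and Epb41l1 (1.96, SE 0.25, adjusted p = 0.000267) were higher, as Epb41l4a was. Along the lineage 2 fell at the first step (median -0.34), Epb41l4b (-2.91, SE 0.47, adjusted p = 0.000866) and Epb41l3 (-1.27, SE 0.30, adjusted p = 0.00812). At the second 2 rose and 3 fell (median -0.07), with Epb41l1 at 3.39 (SE 0.32, adjusted p = 1.61e-05) and Epb41l5 at -1.43 (SE 0.18, adjusted p = 0.000155). The sizes for Epb41l4b rest on 1.26 and 1.09 CPM in IPC-like and 1.18 and 1.57 CPM in excitatory neuron-like cells. Ubash3a, the only UBASH3 relative, did not pass the low-count filter.

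Of 8 BTB zinc finger genes tested, 1 passed as higher and 1 as lower in the interneurons (median 0.19). The lower one, Zbtb38 (-0.83, SE 0.21, adjusted p = 0.0172), was not called in 3 of the alternatives, with the direction kept. Its log2 fold change was -0.61 with cells of at least 500 genes (adjusted p = 0.0867) and -0.69 with classes from 50% of the UMIs (adjusted p = 0.092). Without the Eomes-led neuron cluster it was -0.65 (adjusted p = 0.051). Zbtb16 stood at 308 and 138 CPM in MGE interneuron-like and 3.17 and 4.3 CPM in excitatory neuron-like cells (log2 fold change 5.81, SE 0.40, adjusted p = 4.73e-06), the reverse of Zbtb18. Its libraries differed by more than 2 times in the interneurons. From RGC-like to IPC-like cells, where Zbtb18 rose, 3 rose and 1 fell (median 0.21), with Zbtb38 at 2.92 (SE 0.20, adjusted p = 4.71e-06) and Zbtb16 at 1.94 (SE 0.40, adjusted p = 0.00378). Into neurons, where Zbtb18 rose again, 2 rose and 2 fell (median -0.21), and the 2 called genes with the largest changes fell, Zbtb16 (-2.39, SE 0.39, adjusted p = 0.000744) and Zbtb20 (-1.98, SE 0.22, adjusted p = 5.18e-05).

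The 7 genes reported in the literature as repressed by Zbtb18 (Id1 to Id4, Neurog2, Neurod1 and Rnd2) had 4 called lower and 1 higher in the interneurons (median -3.29). Neurod1 was lower, at 0.803 and 0 CPM in the interneurons (-8.32, SE 0.75, adjusted p = 2.55e-05), and Id3 higher, at 48.2 and 41.5 CPM against 0.563 and 0.717 CPM (6.01, SE 0.43, adjusted p = 5.34e-06). Along the lineage all 7 were called between RGC-like and IPC-like cells (4 higher, 3 lower, median 1.72), with Id3 at -7.64 (SE 0.58, adjusted p = 9.00e-06), a size that rests on 0 and 0.362 CPM in IPC-like cells. With coarser clusters Id3 was not called and its sign turned (0.40, adjusted p = 0.253). Between IPC-like and excitatory neuron-like cells 3 were lower and 1 higher (median -0.15). Id1 was among the lower ones (-2.23, SE 0.47, adjusted p = 0.0036), at levels near 0 (1.68 and 2.35 to 0.307 and 0.448 CPM). Its call was lost with doublets kept (adjusted p = 0.076) and with classes from 50% of the UMIs (adjusted p = 0.119). Neurog2 was also lower, from 681 and 629 to 30.5 and 43.9 CPM (log2 fold change -4.00, SE 0.19). Neurog2 was itself among the markers used to name the IPC-like clusters. Its calls at both steps, included in the 7 and the 3 above, were favoured by that naming and are descriptions only. Neurod1 had risen at the first step from 0.676 and 2.8 to 139 and 184 CPM (6.53, SE 0.40, adjusted p = 3.18e-06).

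Of 17 chondroitin and dermatan sulfate synthesis genes tested, 3 passed as higher and 1 as lower in the interneurons (median -0.03). The sulfotransferase Chst15 was the lower one (-2.57, SE 0.52, adjusted p = 0.00518), as Ust was, and Dsel was higher (1.74, SE 0.30, adjusted p = 0.00228). At the step from RGC-like to IPC-like cells, where Ust rose, 2 were higher and 6 lower (median -0.61). The called gene with the largest change there was Csgalnact1, from 21 and 18.8 to 0 and 0.905 CPM (-5.19, SE 1.03, adjusted p = 0.00309), and Chst15 was higher, from 1.01 and 2.8 CPM (3.28, SE 0.40, adjusted p = 0.000167). At the next step 4 were higher and 1 lower (median 0.23), with Chst3 at -4.92 (SE 0.45, adjusted p = 2.40e-05) and Csgalnact1 at 3.78 (SE 1.13, adjusted p = 0.0235). The sizes for Csgalnact1 and Chst3 rest on levels near 0.

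Among 6 alpha2delta and T-type calcium channel subunits tested, 3 passed as higher and 1 as lower in the interneurons (median 1.63). The lower one was Cacna2d1, with 0.803 and 20.3 CPM against 1363 and 1498 CPM in excitatory neuron-like cells (log2 fold change -7.20, SE 0.64, adjusted p = 2.19e-05), and Cacna2d2 was higher (3.25, SE 0.31, adjusted p = 4.12e-05). From RGC-like to IPC-like cells 3 were higher and 0 lower (median 1.15), among them Cacna2d1 (3.79, SE 0.50, adjusted p = 0.000245) and Cacna1h (2.24, SE 0.26, adjusted p = 0.000127). Into neurons, where Cachd1 fell, 2 were higher and 0 lower (median 0.29), Cacna1i (4.75, SE 1.19, adjusted p = 0.0113), a size that rests on levels near 0, and Cacna1h (1.05, SE 0.21, adjusted p = 0.00299).

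Of 14 Rac exchange factors and Rac genes tested, 3 passed as higher and 1 as lower in the interneurons (median 0.05). The exchange factor Tiam2 was the lower one, at 19.3 and 22.1 CPM against 1590 and 1541 CPM (log2 fold change -6.32, SE 0.43, adjusted p = 4.02e-06), as Prex1 was, while Tiam1 was higher (1.26, SE 0.16, adjusted p = 0.000249). From RGC-like to IPC-like cells 4 rose and 4 fell (median 0.02), Tiam2 with Prex1 (3.87, SE 0.36, adjusted p = 2.85e-05) and Prex2 against it (-2.73, SE 0.37, adjusted p = 0.0003). The Prex2 call was lost with coarser clusters (-0.67, adjusted p = 0.183). Into neurons 6 rose and 2 fell (median 0.49), with Rac3 up (3.35, SE 0.26, adjusted p = 5.71e-06) and Dock1 down (-3.33, SE 0.18, adjusted p = 9.81e-07).

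Of 14 unconventional myosins, 2 passed as higher and 1 as lower in the interneurons (median 0.23), the lower one being Myo1e, at 1.61 and 2.65 CPM in the interneurons (-2.33, SE 0.46, adjusted p = 0.00456), and Myo18a being a higher one (0.63, SE 0.15, adjusted p = 0.0146), a call lost with classes from 50% of the UMIs (0.57, adjusted p = 0.0816). From RGC-like to IPC-like cells, where Myo10 rose, 2 rose and 2 fell (median 0.05), and the 2 called genes with the largest changes fell, Myo5b (-3.89, SE 0.83, adjusted p = 0.00582) and Myo1d (-1.26, SE 0.27, adjusted p = 0.00452). Into neurons, where Myo10 fell, 4 rose and 3 fell (median 0.32). Of the called genes Myo5b had the largest change and rose, from 0 and 0.362 to 3.17 and 5.51 CPM (4.49, SE 0.79, adjusted p = 0.00155), and both of its sizes rest on levels near 0. Myo6, a motor that walks toward the minus end of actin, fell (-2.66, SE 0.25, adjusted p = 1.78e-05).

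The members are long genes. On GRCm38.p6 their annotated spans ran from 8.41 kb (Zbtb18, chr1:177442351-177450764) to 404 kb (Hivep3, chr4:119733759-120138045), with a median of 191 kb, against a median of 26.1 kb over the 94.9% of tested genes with a RefSeq span. Of the 9, 8 lay above that median, all but Zbtb18. Whether intronic reads were counted is not stated in the sources used here. At least 1 other annotated gene overlapped 6 of the 9 on the RefSeq map, and reads of overlapping genes may be split between them.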

How the data were processed

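Droplet-based single-cell RNA was measured in 2 libraries of WT embryos at embryonic day 14.5. The authors processed the reads with Cell Ranger 7.0.0 on mm10 and deposited UMI counts per gene and barcode, not normalized. Barcodes needed 1000 or more genes and no more than 10% of UMIs from mitochondrial genes, and Scrublet in scanpy 1.11.5 marked 14 (1.16%) and 15 (0.761%) as doublets, which were left out. The cells were clustered (2000 variable genes without the members, 30 components, 20 neighbours, Leiden resolution 1) into 24 clusters and 9 GABAergic sub-clusters, which were named from marker lists. A name needed 3 markers whose log2 level exceeded the median over clusters by 1 or more, each seen in 25% or more of the cluster's cells. A cluster stayed unnamed if no marker of its best list was among its 10 leading genes and either its median UMIs were below 1/3 of its library's or 3 leading genes belonged to another list. A sub-cluster got no sub-class if a leading gene belonged to another sub-class, or if under 50% of its markers were raised and none led. Since these cell names were made anew, they can depart from those of the study. In all, 1 cluster of 65 cells stayed unnamed and 57 GABAergic cells stayed without a sub-class. UMIs were summed per class and library. The 6 classes that had 10 or more cells per library were fitted together in edgeR 4.0.16 (quasi-likelihood test, TMM, filterByExpr, Benjamini-Hochberg adjustment over all genes tested, called under 0.05), and standard errors were taken as the ratio of the log2 fold change to the root of the F statistic. With 2 libraries, p-values measure the spread between these libraries only. Intervals are exact Clopper-Pearson and, like the limit of 3 counts for a count of 0, cover counting error only.

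The members and all lists were chosen with earlier results of these data known. Named were the 9 members, at most 2 called genes per list of relatives and comparison (those with the largest change), and the genes most like each member. Cluster leaders, markers and the cells outside the compared classes were named after their values were seen. Because clustering and testing used the same UMIs, one alternative drew 50% of the UMIs in every cell for clustering and left the others for the tests. Sums that share a number share a library: deviations from the class means correlated between classes with a median of 0.103 over 15 pairs (0.0326 to 0.245), and with 0.211 between IPC-like and RGC-like, 0.237 between excitatory neuron-like and IPC-like, and 0.135 between Sst-positive and Sst-negative sums. The library block was an alternative. Tested on simulated data with 200 changed genes each, the fits recovered 169 (IPC-like against RGC-like, 13180 genes), 169 (excitatory neuron-like against IPC-like, 13161 genes), 139 (MGE interneuron-like against excitatory neuron-like, 13155 genes) and 124 (Sst contrast, 7288 genes). Promoter sequences and gene positions come from RefSeq tables on GRCm38.p6, the assembly also called mm10. Promoters were listed for 8 of the 9 members.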

Additional observations from a re-analysis of the deposited data

Results flagged for a closer look

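Cachd1 was at a mean of 921 CPM (932 and 909 CPM in 36 and 29 cells) in the unnamed cells, which entered no comparison, above its level in every class compared. One RGC-like cluster, led by Ttr and Rspo3, held more (1137 and 1127 CPM). The unnamed cells were shallow, with medians of 5850 and 4255 UMIs, were led by Creb5 and Plce1, and had 9 of the 11 RGC markers raised. They stayed unnamed because cells this shallow needed such a marker among their 10 leading genes and had none. Myo10 was at a mean of 289 CPM in the vascular or meningeal-like cells, likewise outside the comparisons within the lineage and above every class compared there.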

How the results depend on the processing

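Of the 16 alternatives tried for each step of the lineage, including 4 chosen after seeing the data (adding a mixed GABAergic sub-cluster to the MGE interneuron-like class, and leaving out the shallow or the Eomes-led excitatory neuron-like cluster or the Ttr-led RGC-like cluster), none changed the number of called genes or of called members by more than 1.5 times. Sizes moved more. Between MGE interneuron-like and excitatory neuron-like cells, 37 of 144 log2 fold changes of members moved by more than the SD between libraries, and 0 changed sign. Zbtb18 ranged there from -7.32 to -5.81 and Myo10 from -4.83 to -2.77. Of the mean CPM values of members, 96 moved by more than that SD and 336 did not. For Hivep3 between RGC-like and IPC-like cells the log2 fold change turned positive with at least 500 genes (1.83), at most 5% mitochondrial UMIs (0.77), doublets kept (0.08), Leiden resolution 0.5 (0.26) and 2 (0.52), and classes from 50% of the UMIs (0.82). At resolution 0.5, Bend4 into neurons was -0.29 and Id3 between RGC-like and IPC-like cells 0.40. Without the Ttr-led cluster Cachd1 between RGC-like and IPC-like cells was 0.16. In the Sst contrast Hivep3 was 0.05 with classes from 50% of the UMIs, and Ubash3b -0.06 there and -0.01 with at least 500 genes. The 16 genes called in the Sst contrast became 3 with at least 500 genes, 33 with classes from 50% of the UMIs, 0 when every gene with 1 or more counts was tested (895 at an unadjusted p under 0.05 in edgeR), 43 by DESeq2's Wald test, 26 with Sst-positive at 3 UMIs and 2 with the mixed sub-cluster added. The library as a replicate block gave 70 there and changed no member's call in any comparison. The causes were not tested. Without replicate 2 or 4 the log2 fold change of Hivep3 between RGC-like and IPC-like cells ranged from -0.41 to 0.20, with no test. In the Sst contrast the ranges were -0.38 to 0.16 for Hivep3, 0.04 to 0.61 for Bend4 and -0.43 to 0.53 for Ubash3b, and into neurons 0.12 to 0.72 for Epb41l4a. Into neurons Prex1 ranged from 0.49 to 0.94, and from RGC-like to IPC-like cells Cachd1 ranged from -0.35 to -0.15. The comparison of striatal projection neuron-like with CGE interneuron-like cells was not run because replicate 2 had 1 and 5 such cells.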
